A study of Homo sapiens with 6 samples.

Results

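RNA levels of 10 genes that write, read or erase DNA methylation were followed by RNA-seq of SK-N-BE(2) cells: DNMT1, DNMT3A, DNMT3B, UHRF1, UHRF2, HELLS, TET1, TET2, TET3 and TDG. They were chosen by name, with earlier results of these data known, and all 10 were found among the 35130 gene names of each library. SK-N-BE(2) is a human neuroblastoma line with MYCN amplification, for which the labels give bone marrow as the tissue of origin. One group of 3 dishes received 1 µM NEN for 24 h, and the control group of 3 dishes received the solvent DMSO for the same time. All libraries came from this single line, and the labels call the dishes of a group biological replicates. The labels do not spell out NEN. Published neuroblastoma work uses the abbreviation for niclosamide ethanolamine, an uncoupler of mitochondria, which is taken here as background. Levels are TPM, transcript abundances corrected for transcript length and set against the total of the library, so that levels of different genes can be compared.

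Methyl groups on cytosines of CpG sites are copied to the new strand after each replication. UHRF1 recognises the half-methylated site and brings in DNMT1, the maintenance methyltransferase, while HELLS, a SNF2-family remodeller, opens nucleosomal DNA to the machinery. DNMT3A and DNMT3B set methylation on unmethylated sites. The TET enzymes oxidise 5-methylcytosine in a reaction that uses oxygen and 2-oxoglutarate, and the glycosylase TDG removes the oxidised bases so that base excision repair can put cytosine back. Dividing cells need the maintenance arm to keep silenced promoters methylated.

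Promoter windows are shown for the 4 genes that were called lower under every setting tried. That of UHRF2, the paralog of UHRF1 whose level did not pass the test, is set beside them to show how they differ in sequence. All 10 genes matched the RefSeq promoter table (GRCh38.p14), which holds 250 bases before and 50 after each start, with 21 windows for the 10 genes. The quantification named another build, so these coordinates belong to the RefSeq table alone. Capitals mark an E2F consensus octamer (TTTCCCGC, TTTCGCGC, TTTGCCGC or TTTGGCGC) or the E-box CACGTG, searched on both strands. The 2 motifs share no overlapping match in these windows. For UHRF1 the window with a match nearest to a start is shown.
UHRF1, chr19:4909251-4909550, plus strand: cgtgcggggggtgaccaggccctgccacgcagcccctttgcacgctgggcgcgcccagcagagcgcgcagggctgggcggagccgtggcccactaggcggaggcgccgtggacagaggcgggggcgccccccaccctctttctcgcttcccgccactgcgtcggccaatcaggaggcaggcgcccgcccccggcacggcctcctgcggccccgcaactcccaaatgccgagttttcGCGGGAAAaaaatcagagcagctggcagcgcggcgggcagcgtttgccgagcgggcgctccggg
DNMT1, chr19:10194904-10195203, minus strand: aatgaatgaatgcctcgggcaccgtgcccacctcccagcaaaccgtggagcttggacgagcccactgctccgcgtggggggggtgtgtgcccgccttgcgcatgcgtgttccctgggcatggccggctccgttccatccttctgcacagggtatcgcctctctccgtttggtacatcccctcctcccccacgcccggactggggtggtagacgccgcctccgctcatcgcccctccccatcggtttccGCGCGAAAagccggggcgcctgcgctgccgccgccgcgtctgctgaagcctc
HELLS, chr10:94545538-94545837, plus strand: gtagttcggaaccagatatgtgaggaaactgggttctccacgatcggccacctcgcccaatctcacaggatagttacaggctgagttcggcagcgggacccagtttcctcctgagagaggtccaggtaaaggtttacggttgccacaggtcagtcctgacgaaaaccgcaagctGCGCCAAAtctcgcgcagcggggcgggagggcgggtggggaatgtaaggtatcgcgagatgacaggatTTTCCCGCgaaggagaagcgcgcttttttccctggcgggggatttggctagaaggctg
TDG, chr12:103965622-103965921, plus strand: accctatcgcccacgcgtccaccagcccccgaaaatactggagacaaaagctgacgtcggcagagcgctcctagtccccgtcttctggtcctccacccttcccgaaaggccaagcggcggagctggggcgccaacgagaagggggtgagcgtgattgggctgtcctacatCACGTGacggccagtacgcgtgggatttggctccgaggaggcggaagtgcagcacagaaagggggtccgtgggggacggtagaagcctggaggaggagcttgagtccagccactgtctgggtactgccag
UHRF2, chr9:6412949-6413248, plus strand: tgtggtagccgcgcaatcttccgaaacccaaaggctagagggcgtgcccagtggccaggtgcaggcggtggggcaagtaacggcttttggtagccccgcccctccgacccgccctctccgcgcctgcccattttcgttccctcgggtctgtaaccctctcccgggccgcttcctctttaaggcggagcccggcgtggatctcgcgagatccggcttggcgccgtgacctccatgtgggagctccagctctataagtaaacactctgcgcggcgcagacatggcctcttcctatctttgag

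An E2F octamer was present for 3 of the 10 genes, UHRF1, DNMT1 and HELLS. In the windows printed above, the match began 14 bases before the start of UHRF1 (position -14), at -2 in DNMT1, and at -76 and -8 in HELLS. Of all 35116 windows in the table, 3.31% hold such an octamer, and 3.99% of the 27305 genes have one in any of their windows. Each octamer and the E-box hold a CpG, and the 21 windows of the 10 genes were richer in it. Their median GC was 68.3% and their median observed over expected CpG 0.74, against 58.7% and 0.58 for all windows. The part of composition, or of several windows per gene, in the matches was not tested. The TDG window held no E2F octamer and had an E-box beginning at -80, a motif found in 7.26% of all windows. Windows of DNMT3A, TET2 and TET3 also held an E-box, and neither motif was found in the listed windows of UHRF2, DNMT3B or TET1. For DNMT3B this covers 1 window, whose observed over expected CpG was 0.12. Starts outside the listed windows were not searched, so a gene without a match here may have one elsewhere. A match describes these letters and is not evidence that a factor binds there.

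Between 17285 and 18041 genes lay above 0 in a library, and 12576 genes entered the test, for which the mean over the libraries had to reach 1 TPM. TPM keeps no read counts, so depth is unknown. The sympathetic markers fitted the label: all 9, among them HAND2, DBH and CHGA, were expressed, with sums between 5480 and 6570 TPM in DMSO libraries and between 6750 and 7030 TPM in NEN libraries. Of 11 blood markers, 10 lay below a mean of 1 TPM, with CD3E, MS4A1, MPO and HBB at 0 throughout. The remaining one was CD68, a lysosomal glycoprotein, between 6.93 and 9.26 TPM in DMSO and between 14.8 and 17.1 TPM in NEN libraries. Stromal and endothelial markers summed to 13.3 to 18.9 and 25.1 to 30.0 TPM, most of it PDGFRB, and epithelial ones to 4.57 to 5.82 and 4.35 to 9.98 TPM, with KRT5 and KRT14 at 0. The part of these sums in the results below was not tested.

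NEN-treated cells had lower UHRF1, DNMT1 and HELLS mRNA, of the maintenance arm, and lower TDG mRNA, while DNMT3A and TET1 were somewhat higher. Of the 10 genes, 5 fell (UHRF1, DNMT1, HELLS, DNMT3B and TDG), 2 rose (DNMT3A and TET1) and 3 did not pass the test (UHRF2, TET2 and TET3). The test was a two-sided limma fit on log2(TPM + 1), and a gene was called when its Benjamini-Hochberg adjusted p, taken over the whole table, was under 0.05. By the same test, 30.0% of all genes were called, 16.5% lower and 13.5% higher in NEN. With 1 library left out, 0 to 1 of the 10 genes were called higher and 4 to 5 lower. The calls of DNMT3A, DNMT3B and TET1 did not hold in every such fit. The libraries of the groups did not overlap for 6 of the 10 genes that lay lower and 2 that lay higher in NEN. Of all genes, 46.8% had no overlap, 25.0% lower and 21.8% higher. The median change of the 10 genes was -0.32 on the log2 scale, against -0.02 for all genes tested. Their summed level went from 412.3, 416.9 and 431.6 TPM in DMSO to 294.1, 275.2 and 293.4 TPM in NEN libraries. In such bulk RNA, fewer cells in a state such as S phase and less mRNA per cell cannot be told apart.

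**Figure D1:**
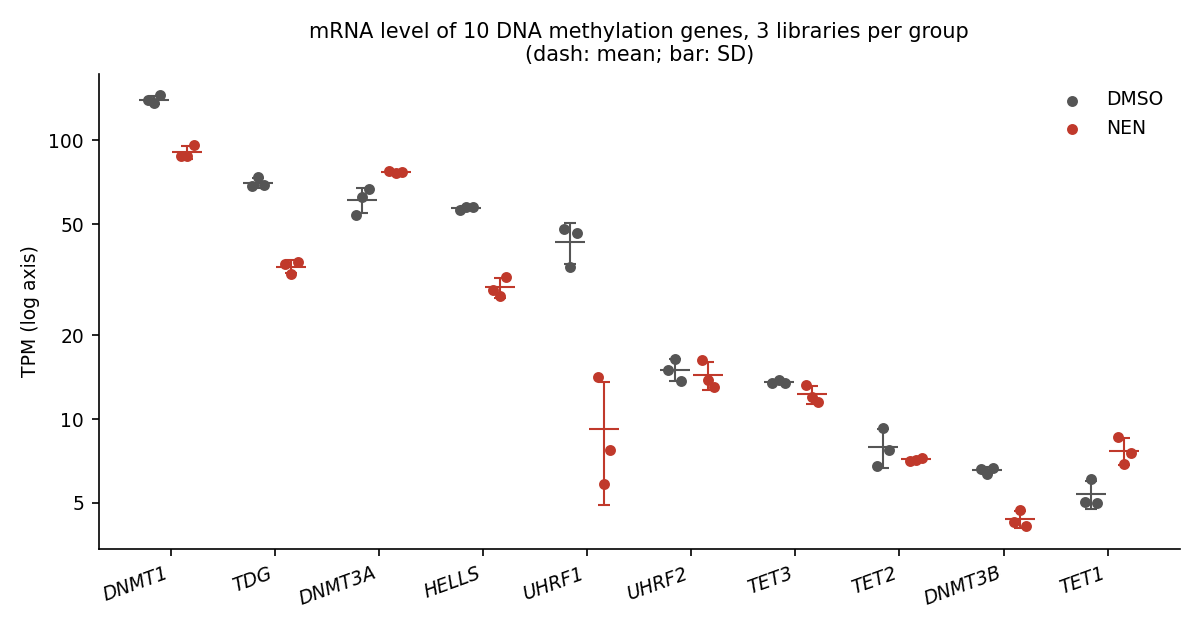
TPM of each gene on a log axis in 3 DMSO (grey) and 3 NEN (red) libraries, with the mean and SD, ordered by the DMSO mean. UHRF1 shows the widest gap, between 35.1 and 48.1 TPM in DMSO and between 5.85 and 14.1 TPM in NEN libraries, while the points of UHRF2 and TET2 overlap between the groups.

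UHRF1 had 48.1, 35.1 and 46.4 TPM in the DMSO libraries and 14.1, 5.85 and 7.77 TPM in the NEN libraries. The groups were far apart, and NEN replicate 1 lay above the other NEN libraries. The NEN mean was 21.4% of the DMSO mean. The change was -2.18 ± 0.28 (SE) on the log2(TPM + 1) scale, with limma's adjusted p = 0.00195, and ranked 11th among the falls of all 12576 genes tested. Without NEN replicate 1 it was -2.50, and leaving out each library in turn gave -2.50 to -1.93.

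UHRF2, the related protein with the same domain layout, had 14.9, 16.4 and 13.7 TPM in DMSO and 16.3, 13.9 and 13.1 TPM in NEN libraries. The groups overlapped. The change was -0.06 ± 0.12 (limma, adjusted p = 0.735), and single NEN libraries differed from single DMSO libraries by -0.31 to 0.23. UHRF1 thus made up 76.3%, 68.1% and 77.2% of the summed UHRF1 and UHRF2 level in DMSO and 46.4%, 29.7% and 37.3% in NEN libraries. In each NEN library UHRF2 was the more abundant of the pair, and in each DMSO library UHRF1 was.

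DNMT1 was the most abundant of the 10 genes in both groups. It had 139, 136 and 145 TPM in DMSO and 87.9, 87.5 and 96.1 TPM in NEN libraries, with no overlap. Its NEN mean was 64.7% of the DMSO mean, a change of -0.62 ± 0.06 (limma, adjusted p = 0.000786).

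HELLS had 56.1, 57.5 and 57.7 TPM in DMSO and 29.0, 27.7 and 32.4 TPM in NEN libraries. The DMSO libraries were tight, with a coefficient of variation of 1.57%, and all NEN libraries lay far below them. The change was -0.92 ± 0.08 (limma, adjusted p = 0.000508), to 52.0% of the DMSO mean. The calls of UHRF1, DNMT1 and HELLS held under every alternative run, including the omission of any single library.

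The 2 de novo enzymes moved in opposite directions. DNMT3A had 54.0, 62.6 and 66.8 TPM in DMSO and 77.3, 76.5 and 77.0 TPM in NEN libraries. The NEN values were nearly equal and lay above all DMSO values, of which replicate 1 was the lowest. The change was 0.33 ± 0.08 (limma, adjusted p = 0.0245), or 1.26 times the DMSO mean. That call was lost on omitting DMSO replicate 2 (change 0.352) or any of NEN replicate 1 (change 0.329), 2 (0.336) or 3 (0.331). Limma's adjusted p was then 0.0549, 0.0703, 0.0667 and 0.0699. The call was also lost with no filter on low values (adjusted p = 0.0532) and with limma's plain settings (adjusted p = 0.0519).

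DNMT3B was low in these cells, with 6.63, 6.34 and 6.69 TPM in DMSO and 4.28, 4.71 and 4.14 TPM in NEN libraries. The groups did not overlap and each was narrow. The change was -0.49 ± 0.12 (limma, adjusted p = 0.0220), to 66.7% of the DMSO mean. The call was lost on omitting any of DMSO replicate 1 (change -0.485), 2 (-0.513) or 3 (-0.479), or NEN replicate 1 (change -0.480) or 3 (-0.461). Limma's adjusted p was then between 0.0505 and 0.0691. DNMT3L, the catalytically inactive partner of the de novo enzymes in germ cells, was listed at 0 in all 6 libraries.

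Among the 3 methyltransferases, DNMT1 took 69.6%, 66.3% and 66.4% of the summed level in DMSO and 51.9%, 51.9% and 54.2% in NEN libraries. The share of DNMT3A was 27.1%, 30.6% and 30.6% in DMSO and 45.6%, 45.4% and 43.4% in NEN libraries. DNMT3B stayed a minor part, between 3.06% and 3.32% in DMSO and between 2.34% and 2.79% in NEN libraries. Their sum went from 199.6, 204.9 and 218.6 TPM to 169.5, 168.7 and 177.3 TPM.

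**Figure D2:**
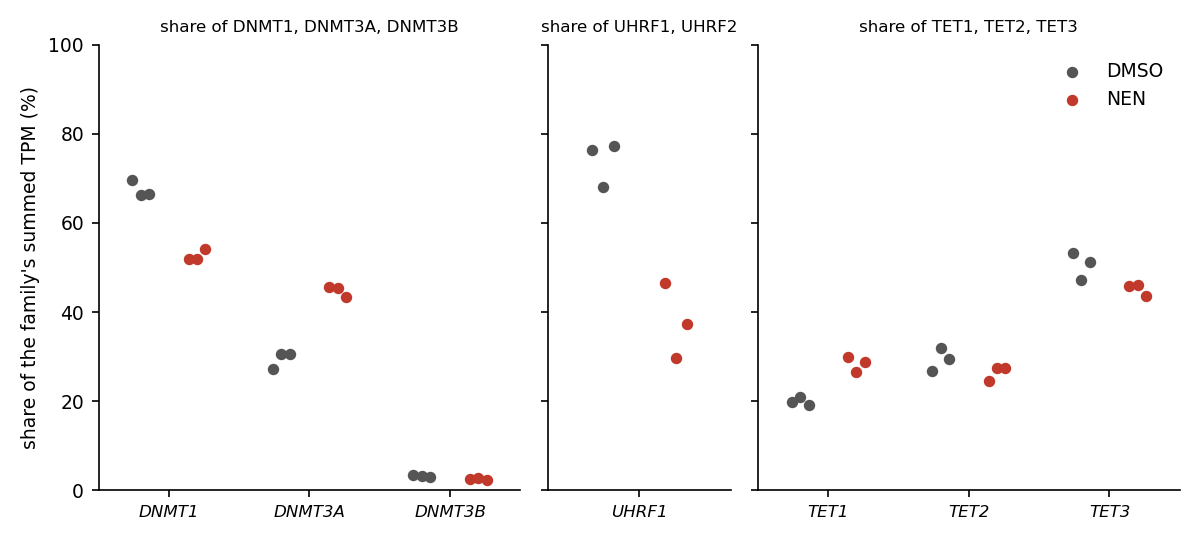
Share (%) of a family's summed TPM taken by each gene in 3 DMSO (grey) and 3 NEN (red) libraries; each point is a library. The DNMT1 share lies between 66.3% and 69.6% in DMSO and between 51.9% and 54.2% in NEN libraries, and the TET1 share between 19.1% and 20.9% in DMSO and between 26.6% and 29.8% in NEN libraries.

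Of the 4 erasers, 1 fell and 1 rose. TDG had 68.4, 73.7 and 68.9 TPM in DMSO and 36.1, 33.1 and 36.5 TPM in NEN libraries. Every NEN library lay far below every DMSO library, and the NEN mean was 50.1% of the DMSO mean. The change was -0.98 ± 0.07 (limma, adjusted p = 0.000323), the 61st smallest p of all genes tested, and it held under every alternative run. The deposited names include a TDG pseudogene, TDGP1, which was listed at 0 in all libraries, so the TDG value was not split with it in these files.

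TET1 had 5.03, 6.12 and 5.02 TPM in DMSO and 8.64, 6.92 and 7.58 TPM in NEN libraries. The groups did not overlap, with NEN replicate 1 the highest. The change was 0.45 ± 0.14 (limma, adjusted p = 0.0460), or 1.43 times the DMSO mean. This call was close to the threshold. It was lost on leaving out any of DMSO replicate 1 (change 0.408), 2 (0.527) or 3 (0.406) or NEN replicate 1 (change 0.372), 2 (0.514) or 3 (0.456). Limma's adjusted p was then between 0.0509 and 0.135. The call was also lost with no filter on low values (adjusted p = 0.0814).

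TET2 had 6.78, 9.31 and 7.74 TPM in DMSO and 7.09, 7.15 and 7.26 TPM in NEN libraries, with the NEN values inside the DMSO range. Its change was -0.12 ± 0.14 (limma, adjusted p = 0.537). TET3, the most abundant of the family, had 13.5, 13.8 and 13.4 TPM in DMSO and 13.3, 12.0 and 11.5 TPM in NEN libraries. All NEN values lay below the DMSO values, by little in replicate 1, and the change was -0.14 ± 0.10 (limma, adjusted p = 0.325). The summed TET level was 25.3, 29.2 and 26.2 TPM in DMSO and 29.0, 26.0 and 26.4 TPM in NEN libraries, so the groups overlapped. Within that sum, TET1 took 19.9%, 20.9% and 19.1% in DMSO and 29.8%, 26.6% and 28.7% in NEN libraries.

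**Figure D3:**
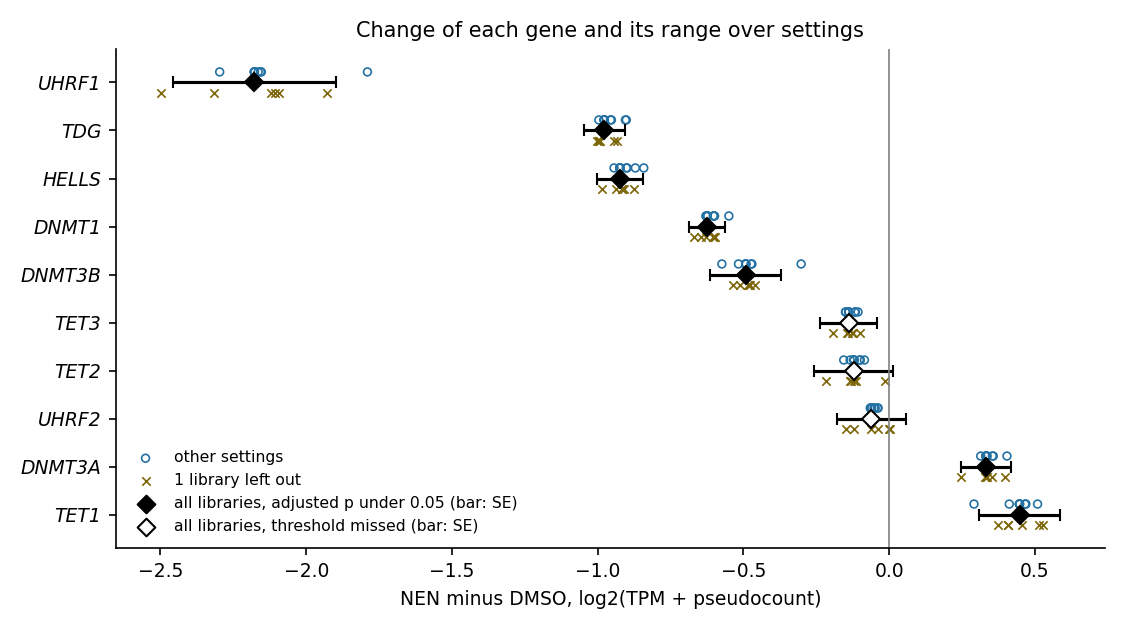
NEN minus DMSO change of each gene on the log2 scale: diamonds with SE bars are the fit of all libraries (filled where adjusted p is under 0.05), open circles are other settings and crosses are fits with 1 library left out. UHRF1 (-2.18), TDG (-0.98), HELLS (-0.92) and DNMT1 (-0.62) lie to the left and kept their call under every setting. The points of DNMT3B, TET2 and TET3 also stay left of 0, while those of UHRF2 reach 0. DNMT3B lost its call under some settings, and TET2 and TET3 were called under none.

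Whether related genes changed by different amounts was examined with 10 within-library log2 ratios and an exact two-sided permutation test over libraries. With 3 libraries a group this exact permutation test cannot go below p = 0.10, so no ratio can pass 0.05. That smallest value (adjusted p = 0.12 over the 10 ratios) was reached by 8 ratios, whose groups did not overlap. Several ratios share a gene and repeat its single-gene change, so the 8 are not separate results. Of single genes, 46.8% had no overlap, and no such share was computed for ratios of other gene pairs. UHRF1 relative to UHRF2 went from 1.45 ± 0.35 (SD, n = 3) in DMSO to -0.66 ± 0.46 in NEN libraries, a difference of -2.12. UHRF1 relative to DNMT1 differed by -1.55 and HELLS relative to DNMT1 by -0.30. DNMT1 relative to DNMT3A differed by -0.96 and DNMT3A relative to DNMT3B by 0.82. TET1 relative to TET2 differed by 0.57 and relative to TET3 by 0.59, and TDG relative to TET3 differed by -0.84. DNMT1 relative to DNMT3B differed by -0.13 (exact permutation p = 0.30) and TET2 relative to TET3 by 0.02 (exact permutation p = 1.00), both with overlapping groups.

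In DMSO cells the order of levels was DNMT1 (140.0 TPM), TDG (70.3), DNMT3A (61.2), HELLS (57.1), UHRF1 (43.2), UHRF2 (15.0), TET3 (13.6), TET2 (7.94), DNMT3B (6.56) and TET1 (5.39). Neighbours whose library ranges overlapped were DNMT3A with HELLS and UHRF2 with TET3. In NEN cells DNMT3A (76.9 TPM) stood second after DNMT1 (90.5), ahead of TDG (35.2) and HELLS (29.7). UHRF1 (9.25 TPM) dropped from the fifth place to the seventh, where its range overlapped those of TET3 (12.3) and TET1 (7.71). The ranges of UHRF2 with TET3 and of TET1 with TET2 also overlapped in NEN cells.

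Genes whose 6-library profiles were nearest to those of the called genes were found by the root-mean-square (RMS) difference of log2(TPM + 1), each centred on its DMSO mean, among 7960 protein-coding genes that reach 10 TPM. This is a description and carries no test. For UHRF1 they were CDC6, which loads the replicative helicase (RMS difference 0.263), CCNE2, an E-type cyclin (0.434), and the chemokine CXCL12 (0.489). For DNMT1 they were the centromere protein CENPM (0.038), the paraspeckle protein PSPC1 (0.048) and POLE3, a subunit of DNA polymerase epsilon (0.051). TDG was nearest to POLA1, the catalytic subunit of DNA polymerase alpha (0.031), SFPQ, an RNA-binding protein (0.042), and the arrestin ARRDC4 (0.052). HELLS was nearest to the ubiquitin-conjugating enzyme UBE2N (0.048), TOE1 (0.049) and ARRDC4 (0.050). For DNMT3A they were HDGFRP2 (0.033), TNIP2 and PAK4 (0.035 each), for DNMT3B ACAD9 (0.020), TMX2 (0.033) and CEACAM21 (0.038), and for TET1 GLB1 (0.046), USO1 and ASUN (0.047 each). UHRF1 had the most distant nearest genes of the 7 called genes.

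Genes of S phase and replication, listed with earlier results of these data known, were lower in the same libraries. Of 37 such genes limma called 33 lower and 0 higher (35 and 0 at an unadjusted p under 0.05), where 16.5% of all genes fell, and their median change was -0.96. PCNA, the sliding clamp that also docks DNMT1 at the fork, had 472, 446 and 434 TPM in DMSO and 182, 179 and 165 TPM in NEN libraries. MCM5, a helicase subunit, changed by -1.46 ± 0.08, TK1, a thymidine kinase, by -1.17 ± 0.06 and FEN1, a flap nuclease, by -1.60 ± 0.09 (limma, adjusted p between 0.000215 and 0.000219). UHRF1 lay below this list's median, HELLS and TDG near it, and DNMT1 above it. Of the 32 genes of the list found in the promoter table, 17 held an E2F octamer in any window, against 3.99% of all genes of the table. The base composition of their windows was not compared. The part of the lower S phase levels in the falls of UHRF1, DNMT1, HELLS and TDG was not tested.

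Of 14 tested genes whose proteins work with the methyltransferases, 6 fell and 1 rose, with a median of -0.20, while 16.5% of all genes fell and 13.5% rose. Some of these falls, that of PCNA among them, are also counted among the S phase genes. Besides PCNA, KIAA0101, the PCNA-associated factor that is ubiquitinated to recruit DNMT1, had 129, 145 and 141 TPM in DMSO and 95.5, 100.5 and 96.1 TPM in NEN libraries. CDCA7, which recruits HELLS to chromatin, had 60.9, 52.0 and 48.1 TPM in DMSO and 41.1, 35.0 and 36.5 TPM in NEN libraries, a change of -0.50 ± 0.11 (limma, adjusted p = 0.0120). SETDB1, a histone H3 lysine 9 methyltransferase that cooperates with DNA methylation at repeats, was the one that rose, from 35.6 ± 0.28 to 46.7 ± 3.6 TPM (SD, n = 3; limma, adjusted p = 0.0102). With median-ratio scaling or quantile normalization 2 genes of this list rose, as they did without DMSO replicate 2. Of 9 methyl-CpG readers, including the MBD family, limma called 0 in either direction (1 higher and 1 lower at an unadjusted p under 0.05), with a median of 0.09. The reader list had 1 gene lower without DMSO replicate 1 and without NEN replicate 3.

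Downstream of TDG, genes of base excision repair and related demethylation factors went both ways, with 6 of 17 tested genes higher and 2 lower, where 13.5% of all genes rose and 16.5% fell. UNG, which removes uracil from DNA, had 74.1, 89.7 and 88.9 TPM in DMSO and 42.0, 47.5 and 40.7 TPM in NEN libraries, all below the DMSO values. Its change of -0.94 ± 0.10 (limma, adjusted p = 0.000993) was near that of TDG. XRCC1, the scaffold of the repair complex, rose from 31.8 ± 0.62 to 48.1 ± 1.8 TPM (SD, n = 3; limma, adjusted p = 0.00135). NEIL2, a glycosylase, rose from 11.6 ± 1.2 to 18.2 ± 1.4 TPM and GADD45B, a stress-induced factor linked to demethylation, from 2.26 ± 0.42 to 5.19 ± 0.63 TPM (limma, adjusted p = 0.00666 and 0.00704). The count of genes that fell was 1 on omitting DMSO replicate 1 or 2 or NEN replicate 2 or 3.

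The methyl donor for all DNA methyltransferases is S-adenosylmethionine. MAT2A, which makes it outside the liver, had 227, 219 and 215 TPM in DMSO and 85.8, 91.8 and 91.1 TPM in NEN libraries. The groups were far apart and each was narrow, with a change of -1.29 ± 0.05 (limma, adjusted p = 0.000176). MAT1A, the liver form, was listed at 0 throughout, and MAT2B, the regulatory subunit, had a change of -0.08 ± 0.09 (limma, adjusted p = 0.548). AHCYL2, a relative of the enzyme that clears S-adenosylhomocysteine, rose from 4.30 ± 0.62 to 8.29 ± 0.29 TPM (SD, n = 3; limma, adjusted p = 0.00482). That enzyme, AHCY, was far more abundant and rose by less, from 347 ± 25 to 410 ± 8.5 TPM (limma, adjusted p = 0.0251). AHCYL1, another relative, rose from 89.2 ± 2.6 to 106 ± 3.9 TPM (limma, adjusted p = 0.0165). CBS, which draws homocysteine out of the cycle, fell from 163 ± 3.7 to 130.0 ± 5.3 TPM (limma, adjusted p = 0.00525). In all, 3 of 11 tested genes of this cycle rose and 3 fell, with a median of 0.04, beside 13.5% and 16.5% of all genes. The number that rose was 1 on omitting DMSO replicate 2 or NEN replicate 1 or 3.

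**Figure D4:**
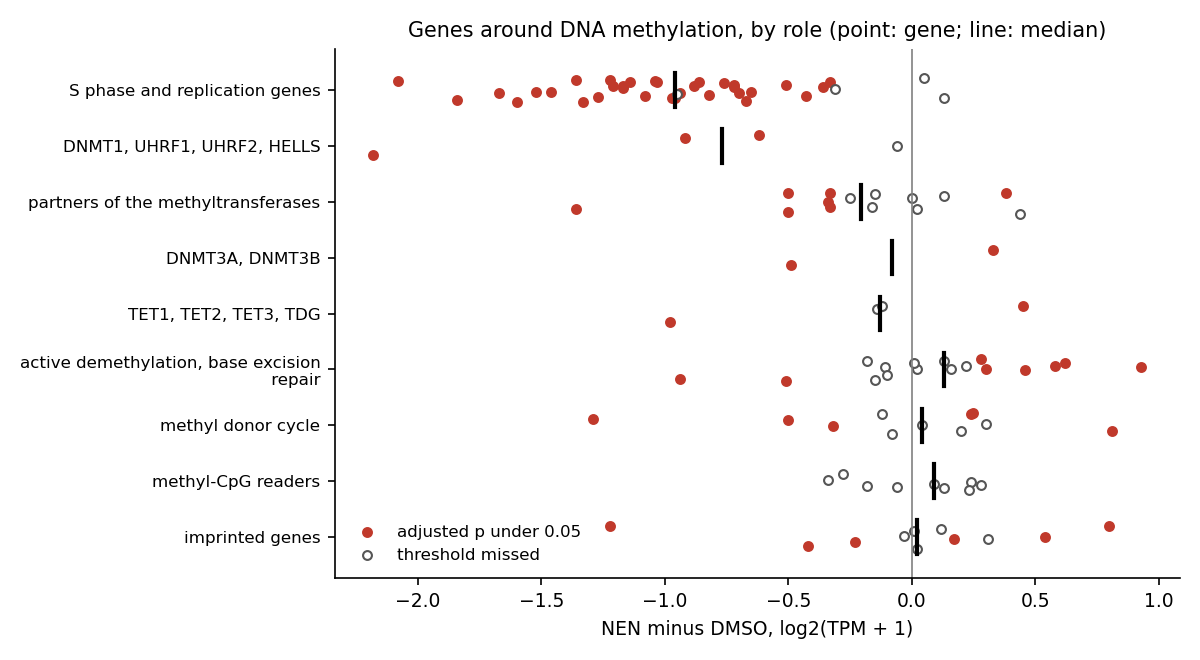
Change of each tested gene (NEN minus DMSO, log2 scale; 1 point per gene, filled where adjusted p is under 0.05) by role, with the median of each list as a line. The median is -0.96 for S phase genes and -0.77 for DNMT1, UHRF1, UHRF2 and HELLS, while the medians of the readers (0.09) and the methyl donor cycle (0.04) lie near 0.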

How the data were processed

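RNA-seq of 3 DMSO and 3 NEN libraries was grouped by the labels' treatment. The deposited values are TPM, 1 per gene name; reads were quantified with kallisto and hg19 is named, per the submitters' processing notes, with no version given there. The library text names polyA capture and rRNA removal without choosing, per the labels' protocols. The 12576 of 35130 genes whose mean reached 1 TPM were fitted as log2(TPM + 1) in limma 3.58.1 (R 4.3.3; trend and robust settings; group alone; Benjamini-Hochberg over all tested genes; threshold 0.05). This scale understates the change of low genes. The fit was tested on simulated data.

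The genes and lists were chosen with earlier results of these data known. Besides the 10 genes, the text names up to 4 called genes per list with the smallest adjusted p and the 3 nearest profiles of each called gene. It also names AHCY and a few undetected or uncalled relatives, chosen after their values were seen. KIAA0101 and WHSC1 were matched by older symbols, and 5 names of the imprinted list were not matched. Some lists share genes, so their counts are not independent. Some genes of the lists were left out and are not reported here. Exact permutation tests used scipy 1.17.1. Figures were drawn with matplotlib 3.10.9. A planned comparison of the proteins was not made.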

Additional observations from a re-analysis of the deposited data

How the results depend on the processing

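Alternatives were a replicate block, each library left out, no filter, a minimum mean of 5 TPM, 3 other scalings, pseudocounts of 0.1 and 5, and limma's plain settings. The falls of UHRF1, DNMT1, HELLS and TDG kept direction and call under all of them. Same-numbered libraries of the 2 groups had deviations correlated at 0.012, -0.008 and -0.028, and not every library correlated best with its own number, so the numbers were not taken as pairs. With the replicate block 1 of the 10 genes rose, and the calls of DNMT3B (change -0.492) and TET1 (change 0.447) were lost. With no filter 0 rose (change of DNMT3A 0.332, of TET1 0.447), and imprinted genes had 1 up and 1 down. With plain settings TET1 alone of the 10 rose, 1 gene, since DNMT3A (change 0.332) lost its call. Partners of the methyltransferases had 2 up with median-ratio scaling and 2 with quantile normalization.

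With 1 library left out, the count of the 10 genes ranged from 0 to 1 higher and 4 to 5 lower, and of all genes from 1063 to 1554 higher, the lowest being without NEN replicate 1. Changes ranged from 0.247 to 0.398 for DNMT3A, -0.536 to -0.461 for DNMT3B, 0.372 to 0.527 for TET1 and -0.147 to 0.002 for UHRF2, which was 0.001 without DMSO replicate 2 and 0.002 without NEN replicate 3. The TET2 to TET3 ratio differed by -0.074 to 0.114, with -0.074 without DMSO replicate 1 and -0.031 without NEN replicate 3. Called counts ranged from 0 to 1 lower for readers, 1 to 2 higher for partners, 1 to 2 lower for base excision repair, 1 to 3 higher for the methyl donor cycle, and 1 to 3 higher and 1 to 2 lower for imprinted genes. List medians ranged from -0.105 (without NEN replicate 3; -0.007 without NEN replicate 1) to 0.169 for readers, from -0.002 (without DMSO replicate 2) to 0.220 for base excision repair, from -0.013 (without NEN replicate 1) to 0.141 for the methyl donor cycle and from -0.004 (without NEN replicate 2) to 0.111 for imprinted genes. With no filter the last 2 were -0.082 and -0.024. The cause of these changes was not tested. Because depth is unknown, no counting error can be given for low genes such as DNMT3B and TET1.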

Other observations

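Genes that are textbook cases of silencing by promoter methylation stayed near 0 in both groups. Of 20 germline and cancer-testis genes, among them DAZL, DDX4, MAGEA1 and SSX1, 0 reached a mean of 1 TPM, 7 were listed at 0 in all libraries, and the highest single value was 1.03 TPM. Their summed level lay between 0.958 and 2.64 TPM in DMSO and between 0.694 and 1.82 TPM in NEN libraries. Several belong to near-identical families, so their own values are uncertain. These genes did not enter the test, and the methylation of their promoters in these cells was not measured. Their low levels after 24 h therefore do not show whether methylation was kept.

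Imprinted genes, whose parental alleles differ in methylation, had 3 of 11 tested members higher and 3 lower, with a median of 0.02, beside 13.5% higher and 16.5% lower among all genes. GNAS, which encodes a stimulatory G protein subunit, rose from 1470 ± 33 to 2140 ± 234 TPM (SD, n = 3; limma, adjusted p = 0.00330). SNURF had 13.4, 26.2 and 18.6 TPM in DMSO and 9.46, 6.29 and 6.91 TPM in NEN libraries (limma, adjusted p = 0.00971), while SNRPN, whose transcripts overlap those of SNURF, had 165, 163 and 156 TPM and 174, 175 and 178 TPM (adjusted p = 0.107). Because both share sequence, their split is uncertain. IGF2 had 1048, 1007 and 988 TPM in DMSO and 1021, 960.4 and 1001 TPM in NEN libraries (adjusted p = 0.699). The data give no allele and no methylation level. The imprinted count of 3 higher was 1 with no filter and without DMSO replicate 2 or 3 or any NEN replicate, and that of 3 lower was 1 with no filter and without DMSO replicate 1 or 2 or NEN replicate 2 or 3.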
